A study of Homo sapiens with 8 samples.

Results

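The RNA exosome is the main 3′-to-5′ RNA-degrading machine of human cells. Its core is a barrel in which EXOSC4 to EXOSC9 form the ring and EXOSC1, EXOSC2 and EXOSC3 form a cap that guides RNA into the channel. The ring is built from pairs, EXOSC4 with EXOSC9, EXOSC5 with EXOSC8 and EXOSC6 with EXOSC7. The human core has lost its own catalytic activity, which is supplied by DIS3 or DIS3L below the ring and by EXOSC10, the nuclear exonuclease above the cap. In the nucleus the complex trims ribosomal RNA precursors and removes unspliced, promoter-upstream and enhancer transcripts, and in the cytoplasm it degrades messenger RNA.

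The genes were taken by their symbols, EXOSC1 to EXOSC10, from a table of 17010 genes. All 10 were listed, and all 10 passed the filter on low counts that left 16488 genes. RNA-seq had been run on PC3, an established human prostate cancer cell line, in 4 groups of 2 libraries. The groups were pladienolide B at 0.5 µM for 24 h (called PlaB), its vehicle dimethyl sulfoxide (DMSO, for a time the labels do not state), SF3B2 siRNA for 72 h (siSF3B2) and control siRNA for 72 h (sictrl). All 8 libraries came from PC3 cells in 3D culture, and the labels name no engineered allele. Pladienolide B binds SF3b, the complex with which the U2 small nuclear ribonucleoprotein holds the branch point of an intron, and SF3B2 is one of its subunits. Whether both libraries of a group are separate cultures is not stated in the labels. The p-values therefore cover the spread between libraries alone, and part or all of it may be technical.

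Total counts per library ran from 35461248 to 72983584. The PlaB libraries stood apart, with TMM scaling factors of 0.63 and 0.66 against 1.13 to 1.21 in the other 6, and a median count per gene of 227 and 223.5 against 871 to 1399.5. The 4 epithelial markers KRT8, KRT18, EPCAM and CDH1 were all listed, with summed levels of 416 to 464 CPM with PlaB and 889 to 980 CPM with DMSO. Of 4 markers of the line's basal and mesenchymal traits VIM and CD44 were listed, with summed levels of 212 to 242 CPM with PlaB and 1141 to 1535 CPM with DMSO. The table holds only genes with at least 1 read in every library. Of 9 markers of other cell types 3 were listed (CD68, PECAM1 and COL1A1), summing to 55.1 to 126 CPM with PlaB and 177 to 185 CPM with DMSO, and their part in the results was not tested. SF3B2 itself stood at 36.4 and 30.1 CPM with its siRNA, against 228 and 228 CPM with control siRNA, a log2 fold change of −2.78 ± 0.24 (SE) that edgeR did not call (adjusted p = 0.0513) and DESeq2 did (adjusted p = 1.97e-25).

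The 10 genes differ in the number of introns on which SF3b could act. EXOSC6 has 1 exon and no intron and is tagged as a retrogene by GENCODE (release 44); it spans chr16:70246778-70251940 on the minus strand (GRCh38). The canonical transcripts have 3 exons in EXOSC4, 4 in EXOSC3, 6 in EXOSC5, 8 in EXOSC1 and EXOSC7, 9 in EXOSC2, 11 in EXOSC8, 12 in EXOSC9 and 25 in EXOSC10. The last 50 bases of an intron hold the branch point in most human introns, followed by a tract of C and T and the terminal AG. Ends are shown for introns of the genes that were lower with PlaB (EXOSC7, EXOSC1 and EXOSC8), of a gene that was higher (EXOSC2) and of genes that were not called (EXOSC3 and EXOSC10), 5′ to 3′ on the transcribed strand. Capitals mark matches to CTNAC, a short form of the branch point consensus, and the terminal AG. All ends shown except that of EXOSC3 hold a match, whereas most introns of each of these genes hold none.
EXOSC7 intron 3: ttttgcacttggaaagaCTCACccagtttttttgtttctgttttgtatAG
EXOSC7 intron 7: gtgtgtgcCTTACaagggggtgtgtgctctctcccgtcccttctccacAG
EXOSC1 intron 6: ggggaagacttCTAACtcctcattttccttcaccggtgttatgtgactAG
EXOSC8 intron 8: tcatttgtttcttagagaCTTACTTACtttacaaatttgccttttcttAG
EXOSC2 intron 2: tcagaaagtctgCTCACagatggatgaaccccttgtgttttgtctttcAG
EXOSC3 intron 3: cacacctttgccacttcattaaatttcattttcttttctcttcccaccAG
EXOSC10 intron 2: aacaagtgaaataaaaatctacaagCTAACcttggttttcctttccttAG
In GRCh38 the EXOSC7 ends lie at chr3:44997037-44997086 and chr3:45011185-45011234 on the plus strand. The EXOSC1 end lies at chr10:97437276-97437325 on the minus strand, and that of EXOSC8 at chr13:37008007-37008056 on the plus strand. The EXOSC2 end lies at chr9:130697532-130697581 on the plus strand. Those of EXOSC3 and EXOSC10 lie at chr9:37780881-37780930 and chr1:11095882-11095931 on the minus strand. In EXOSC8 intron 8 the capitals cover a pair of overlapping matches.

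CTNAC, searched on the transcribed strand only, occurred in the last 50 bases of 24.5% of 136467 introns of 12485 genes. It occurred in 2 of the 7 introns of EXOSC7, 3 of 7 in EXOSC1, 1 of 10 in EXOSC8, 1 of 8 in EXOSC2, 1 of 2 in EXOSC4, 0 of 3 in EXOSC3, 0 of 5 in EXOSC5, 2 of 11 in EXOSC9 and 7 of 24 in EXOSC10. The share of C or T in the 20 bases before the AG had a median of 75% over all these introns, and per gene its median ran from 65% in EXOSC8 to 85% in EXOSC3. A match is a description and not a mapped branch point.

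With PlaB the subunits of the exosome moved apart from each other. With TMM scaling EXOSC6 and EXOSC4 were 15.3-fold and 11.5-fold higher than with DMSO and EXOSC2 was 3.21-fold higher. On the same scale EXOSC7, EXOSC1 and EXOSC8 were 6.54-fold, 2.75-fold and 2.23-fold lower. By edgeR's quasi-likelihood test 7 of the 10 members were called at an adjusted p under 0.05, 4 higher and 3 lower, and of these EXOSC9 turned sign with other scalings. Among all 16488 genes 68.0% were called, 32.5% higher and 35.5% lower, so the members' count was near the background. The median log2 fold change was 0.54 over the members and −0.11 over all genes. The libraries of the groups did not overlap for 8 of the 10 members, against 82.7% of all genes (5 higher and 3 lower members, against 38.6% and 44.1% of genes). Levels are in CPM on the TMM scale, reads of a gene relative to the library's total multiplied by its TMM factor. The factors of 0.63 and 0.66 raise the PlaB values above plain shares of the reads. Those of 1.13 to 1.21 lower the values of the other libraries. CPM are relative levels within a bulk sample, so fewer cells and less RNA per cell cannot be told apart.

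**Figure D1:**
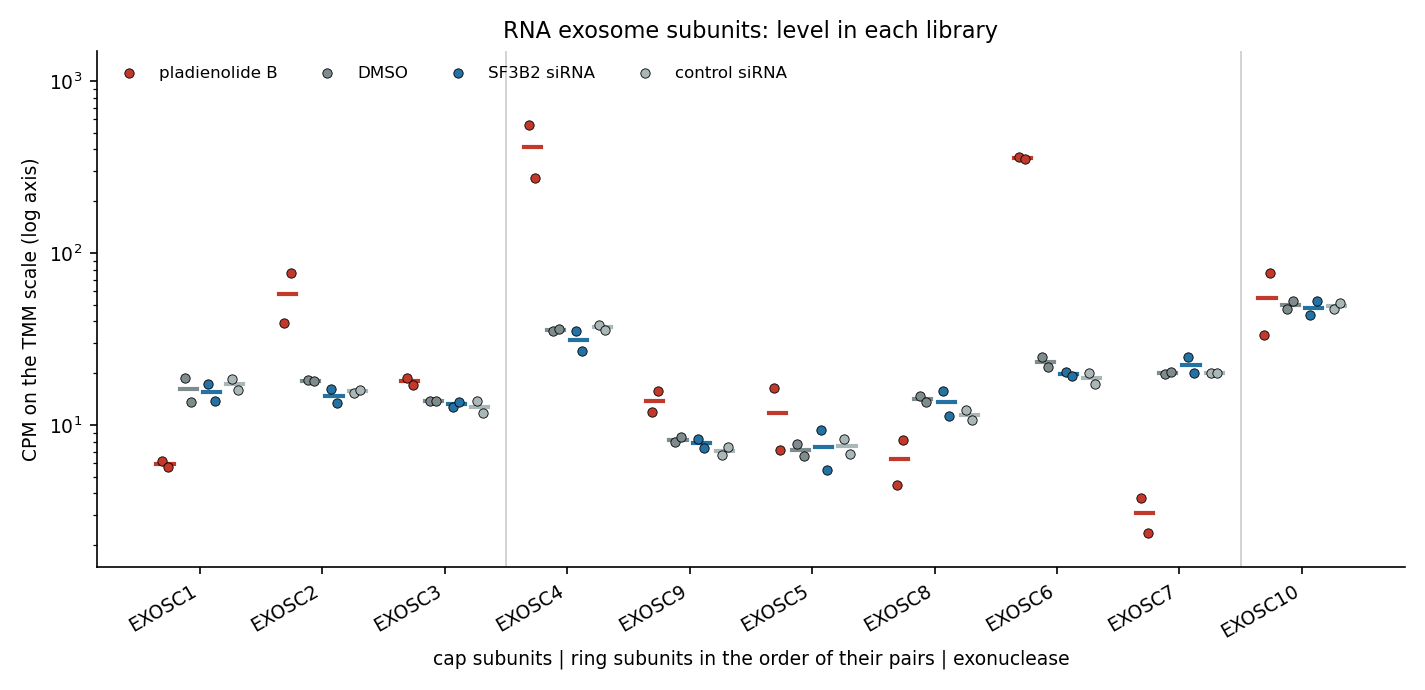
Level of each RNA exosome subunit in each library, in CPM on the TMM scale on a log axis; points are libraries, bars are group means, and colours give the 4 groups. The PlaB points of EXOSC4 and EXOSC6 lie at 274 CPM or more, against 38.2 CPM or less for these genes in all other libraries, and those of EXOSC7 lie at 3.78 and 2.34 CPM, against 19.7 CPM or more elsewhere.

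The pair EXOSC6 and EXOSC7 held both extremes. EXOSC6, the MTR3 subunit of the ring, had 360 and 352 CPM with PlaB, against 24.9 and 21.8 CPM with DMSO. Both PlaB libraries were high and nearly equal, and the groups did not overlap. The log2 fold change of EXOSC6 was 3.93 ± 0.21 (SE; edgeR adjusted p = 1.75e-05), which lay above 96.2% of all tested genes. EXOSC7, its ring partner RRP42, had 3.78 and 2.34 CPM with PlaB, from 99 and 55 reads, against 19.7 and 20.4 CPM with DMSO, from 1212 and 1802 reads. The PlaB libraries were the lowest 2 of all 8. The log2 fold change of EXOSC7 was −2.71 ± 0.28 (edgeR adjusted p = 0.0001), with 9.81% of tested genes lower still. Both calls held in 16 of 16 alternative analyses. In GENCODE, CLEC3B lies on the same strand over exons of EXOSC7, so some reads could belong to either gene. By RefSeq spans no matched gene overlapped EXOSC7. CLEC3B had 67 and 40 reads with PlaB and 47 and 50 with DMSO. On the TMM scale these were 2.56 and 1.70 CPM with PlaB and 0.764 and 0.567 CPM with DMSO. The log2 fold change of CLEC3B was 1.68 ± 0.45 (edgeR adjusted p = 0.0108, called in 12 of 16 alternatives).

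In the pair EXOSC4 and EXOSC9 the larger change was that of EXOSC4. EXOSC4 (RRP41) had 553 and 274 CPM with PlaB, against 35.3 and 36.2 CPM with DMSO. The PlaB libraries differed from each other by a factor of about 2.02, yet both lay far above DMSO. In GENCODE a protein-coding gene on the same strand (chr8:144078642-144084330) and a lncRNA on the opposite strand also reach exons of EXOSC4. RefSeq starts EXOSC4 at chr8:144064056, upstream of the canonical transcript that gave its exon number (chr8:144078672). The part of these in the EXOSC4 counts was not tested. EXOSC4 had a log2 fold change of 3.53 ± 0.36 (edgeR adjusted p = 8.44e-05; called in 16 of 16 alternatives), and 2.93 without PlaB replicate 1. EXOSC9 (RRP45) had 11.8 and 15.8 CPM with PlaB, against 7.95 and 8.5 CPM with DMSO. The groups did not overlap, and the log2 fold change was 0.75 ± 0.24 (edgeR adjusted p = 0.0232), but scaling by library size alone or using TPM turned the sign (−0.12 and −0.20), and the call held in 7 of 16 alternatives. EXOSC9 overlaps CCNA2 on the opposite strand, and no label or header states whether counting used the strand.

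The pair EXOSC5 and EXOSC8 changed less. EXOSC5 (RRP46) had 16.4 and 7.11 CPM with PlaB, against 7.72 and 6.63 CPM with DMSO. One PlaB library was the highest of all and the other lay between the DMSO libraries, so the groups overlapped. Its log2 fold change was 0.71 ± 0.42 (edgeR adjusted p = 0.166), −0.02 without PlaB replicate 1 and 1.18 without PlaB replicate 2. EXOSC8 (RRP43) had 4.46 and 8.17 CPM with PlaB, from 117 and 192 reads, against 14.7 and 13.5 CPM with DMSO, from 903 and 1193 reads. Both PlaB libraries were lower than either DMSO library. The log2 fold change of EXOSC8 was −1.16 ± 0.33 (edgeR adjusted p = 0.0138), and the call was lost in 1 of 16 alternatives, without DMSO replicate 1 (adjusted p = 0.0606). SUPT20H, which overlaps the last 303 bases of EXOSC8 on the opposite strand, was also lower, at 5.57 and 5.28 CPM with PlaB and 28.2 and 34.5 CPM with DMSO; its part in the EXOSC8 counts was not tested.

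Of the cap subunits 1 fell, 1 rose and 1 was not called. EXOSC1 (CSL4), which joins the cap to the ring, had 6.14 and 5.66 CPM with PlaB, against 18.8 and 13.7 CPM with DMSO. The PlaB libraries were the lowest of the 8. EXOSC1 had a log2 fold change of −1.46 ± 0.26 (edgeR adjusted p = 0.00135; called in 16 of 16 alternatives). EXOSC2 (RRP4), an RNA-binding cap protein, had 39.4 and 76.6 CPM with PlaB, against 18.2 and 17.9 CPM with DMSO. Both PlaB libraries were higher than every other library, though they differed almost as much from each other as the lower of them did from DMSO. EXOSC2 had a log2 fold change of 1.68 ± 0.32 (edgeR adjusted p = 0.00199), and the call was lost with scaling by library size alone (0.82, adjusted p = 0.051) and with TPM (0.50, adjusted p = 0.206). EXOSC3 (RRP40), the third cap protein, had 18.7 and 17.2 CPM with PlaB, against 13.9 and 13.8 CPM with DMSO. Its libraries did not overlap, and its log2 fold change of 0.37 ± 0.21 was not called by edgeR (adjusted p = 0.140), was called by DESeq2 (adjusted p = 0.0333) and turned negative with library-size scaling (−0.50). Pseudogenes of EXOSC3 and EXOSC8 are annotated, so reads of these genes may be shared with their copies. In GENCODE protein-coding genes also reach exons of EXOSC3 (on the same strand) and EXOSC5 (on the opposite strand). A lncRNA within EXOSC10 on the opposite strand reaches exons of that gene. The part of these genes in the counts was not tested.

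EXOSC10 (RRP6), the nuclear exonuclease, was the member whose PlaB libraries disagreed in direction on the TMM scale. It had 33.5 and 76.6 CPM with PlaB, against 47.1 and 52.9 CPM with DMSO. On this scale 1 PlaB library lay below both DMSO libraries and the other above both. In TPM both PlaB libraries (12.4 and 34.3) lay below both DMSO libraries (37.1 and 45.8). With TMM the log2 fold change was 0.14 ± 0.36 (95% interval −0.68 to 0.96, edgeR adjusted p = 0.745). EXOSC10-AS1, on the opposite strand of its first exon, had 7 and 7 reads with PlaB and 7 and 13 with DMSO. On the TMM scale its log2 fold change was 1.08 ± 0.62 and was not called. Without PlaB replicate 1 the log2 fold change of EXOSC10 was 0.61, and without PlaB replicate 2 it was −0.59. Each of these fits leaves 1 PlaB library, so its spread comes from the other groups. The PlaB replicates also differed for other members, with a median absolute log2 ratio of 0.77 over the 10 members and 0.60 over all genes, against 0.11 to 0.29 over the members in the other groups. EXOSC5 and EXOSC4 were higher in PlaB replicate 1 (log2 ratios of 1.2 and 1.02), EXOSC10 and EXOSC2 in replicate 2 (−1.19 and −0.96), and EXOSC6 was level (0.03).

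**Figure D2:**
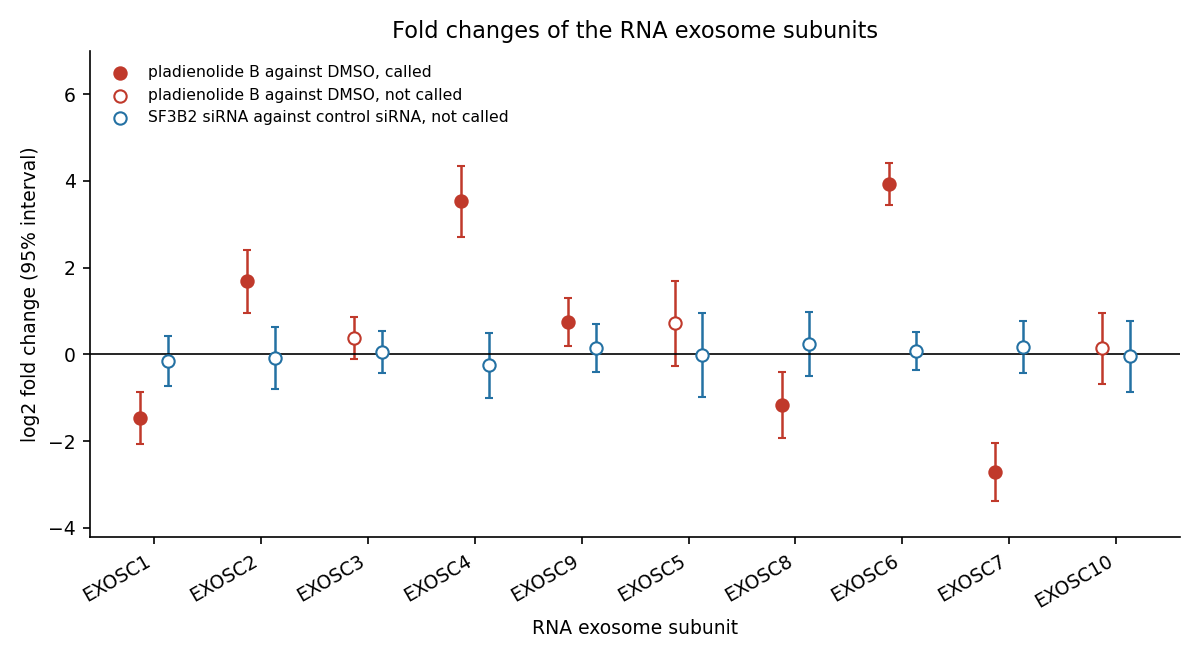
Log2 fold change of each subunit with its 95% interval by edgeR, for PlaB against DMSO in red and SF3B2 siRNA against control siRNA in blue; filled points passed an adjusted p under 0.05. Red points span −2.71 to 3.93 while blue points lie between −0.25 and 0.25; the positive red values of EXOSC3, EXOSC5, EXOSC9 and EXOSC10 turn negative with library-size scaling or TPM.

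The sizes of the changes depended on the scaling of the libraries, and for some of the smaller ones the call or sign did too. By mean TPM EXOSC6 and EXOSC4 were 8.04-fold and 5.87-fold higher with PlaB than with DMSO. EXOSC7, EXOSC1 and EXOSC8 were 15.4-fold, 7.82-fold and 4.16-fold lower by mean TPM. Over all genes the median log2 fold change, −0.11 with TMM, became 0.05 under RLE scaling, −0.97 under library size alone and −0.72 on log2(TPM + 1), where a fold change understates that of low genes. With TMM 5358 genes were called higher and 5854 lower, against 3313 higher and 8446 lower with library size alone. Of the members called, 4 were higher and 3 lower with TMM. With library size alone and with TPM the calls were EXOSC4 and EXOSC6 higher and EXOSC1, EXOSC7 and EXOSC8 lower. The authors' deposited table gave 6 members an adjusted p under 0.05, 3 higher and 3 lower, against 67.3% of its 17010 genes (31.3% higher and 36.0% lower). Its signed fold changes were 14.6 for EXOSC6, 11 for EXOSC4, 3.07 for EXOSC2, −2.34 for EXOSC8, −2.88 for EXOSC1 and −6.84 for EXOSC7.

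The ratio of paired ring subunits within a library does not depend on the scaling of that library. The pairs come from the known structure, and their ratios were computed after the members' values had been seen, so they are given as a description. The TPM ratio of EXOSC6 to EXOSC7 was 24.9 and 42.4 with PlaB, against 0.282 and 0.239 with DMSO. EXOSC7 thus exceeded EXOSC6 per length in both DMSO libraries and EXOSC6 exceeded EXOSC7 in both PlaB libraries. The ratio of EXOSC4 to EXOSC9 was 89.5 and 33.3 with PlaB, against 8.36 and 8.11 with DMSO. The ratio of EXOSC5 to EXOSC8 was 4.42 and 1.06 with PlaB, against 0.637 and 0.587 with DMSO. In each of the 3 pairs both PlaB libraries had the higher ratio of the RRP41-like subunit (EXOSC4, EXOSC5 or EXOSC6) to its RRP42-like partner (EXOSC9, EXOSC8 or EXOSC7). The geometric mean ratios differed by factors of 125, 6.63 and 3.54 for the pairs with EXOSC6, EXOSC4 and EXOSC5, and that of the reads by 103, 6.53 and 3.52. With SF3B2 siRNA the ratios of EXOSC6 to EXOSC7 were 0.196 and 0.234, against 0.244 and 0.212 with control siRNA, and overlapped. Those of EXOSC4 to EXOSC9 were 8.14 and 6.92 with SF3B2 siRNA, against 10.7 and 9.2 with control siRNA. Those of EXOSC5 to EXOSC8 were 0.729 and 0.586 with SF3B2 siRNA, against 0.814 and 0.761 with control siRNA. The last 2 pairs did not overlap and lay lower with SF3B2 siRNA, by factors of 0.756 and 0.83. In both of these pairs control siRNA also lay above DMSO without overlap, and the SF3B2 siRNA values overlapped those of DMSO. How often the ratios of other gene pairs fail to overlap was not tested.

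**Figure D3:**
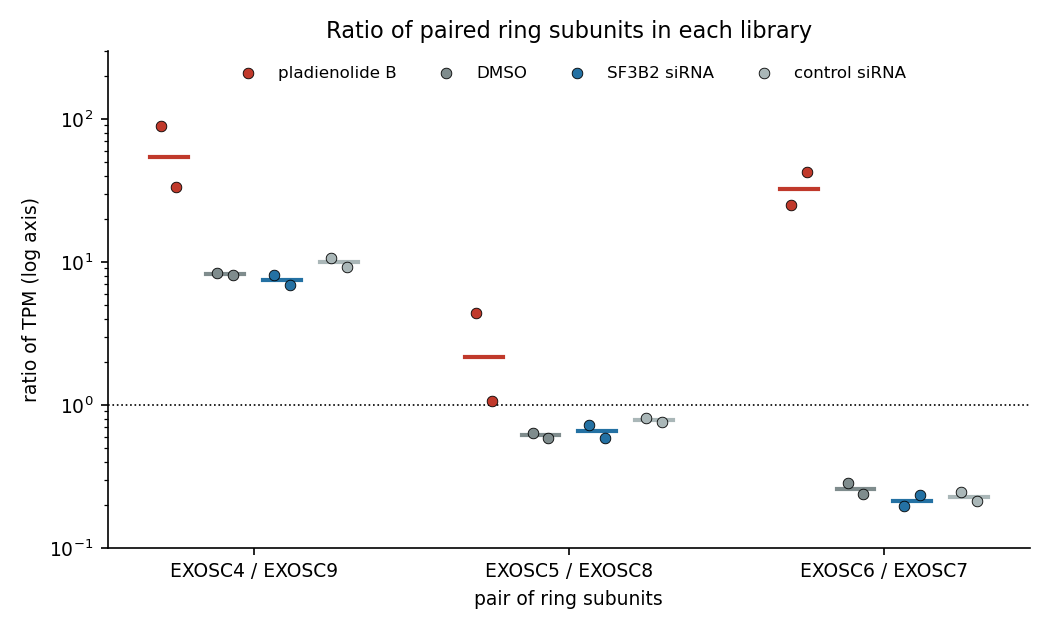
Ratio of TPM between the paired ring subunits in each library, on a log axis; points are libraries, bars are geometric means, and the dotted line marks equal TPM. For EXOSC6 over EXOSC7 the PlaB libraries lie at 24.9 and 42.4, against 0.282 and 0.239 with DMSO, and the siRNA libraries lie near DMSO.

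Levels of different genes were compared in TPM, the deposited share of transcripts per length. With PlaB the order was EXOSC4 (804 and 485 TPM), EXOSC6 (85.3 and 102 TPM), then EXOSC2, EXOSC10, EXOSC5, EXOSC3, EXOSC9 and EXOSC8, and last EXOSC1 (3.7 and 4.2 TPM) and EXOSC7 (3.43 and 2.40 TPM). From EXOSC2 to EXOSC8 each neighbour overlapped the next, so only EXOSC4, EXOSC6, EXOSC1 and EXOSC7 stood apart from their neighbours. With DMSO the order was EXOSC4 (104 and 115 TPM), EXOSC7 (42.5 and 47.2 TPM), EXOSC10, EXOSC1, EXOSC8, EXOSC3, EXOSC2, EXOSC5, EXOSC9 (12.5 and 14.2 TPM) and EXOSC6 (12 and 11.3 TPM). In DMSO EXOSC7 overlapped EXOSC10, EXOSC1 overlapped EXOSC8, and EXOSC3, EXOSC2 and EXOSC5 overlapped in turn. Thus EXOSC4 led both orders, whereas EXOSC6 was last with DMSO and second with PlaB, and EXOSC7 was second with DMSO and last with PlaB. The places depend on the length used. By CPM per kb of the longest annotated transcript EXOSC4 and EXOSC6 again led with PlaB, but EXOSC8 (0.953 and 1.74) came last and overlapped EXOSC7 (2.29 and 1.42). With DMSO EXOSC10 then took place 2 (16.8 and 18.9), EXOSC7 place 3 (12 and 12.4), EXOSC6 place 5 (4.82 and 4.22) and EXOSC9 the last place (2.05 and 2.19). In TPM the highest member stood 235 and 202 times above the lowest in the PlaB libraries, against 8.70 and 10.2 times with DMSO. With SF3B2 siRNA this spread was 10.7 and 8.58 times, against 11.6 and 12.8 times with control siRNA. EXOSC4 made up 82.5% and 67.5% of the summed member TPM with PlaB, against 31.4% and 33.1% with DMSO. The cap subunits summed to 36.4 and 59.2 TPM with PlaB and to 74.2 and 66.3 TPM with DMSO, and the ring subunits to 926 and 624 TPM with PlaB and to 221 and 236 TPM with DMSO.

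With SF3B2 siRNA no member passed the test. By edgeR 0 of the 10 members were called (background 0.0% of all genes, with 638 genes at an unadjusted p under 0.05, of which 0 were members), and DESeq2 called 34 genes, of which 0 were members. EXOSC6 had 20.2 and 19.2 CPM with SF3B2 siRNA, against 20.2 and 17.2 CPM with control siRNA. EXOSC4 had 35.3 and 26.9 CPM with SF3B2 siRNA, against 38.2 and 35.8 CPM with control siRNA. EXOSC7 had 24.8 and 20.1 CPM with SF3B2 siRNA, against 20.04 and 19.99 CPM with control siRNA. EXOSC6 overlapped between the groups, whereas both EXOSC4 values lay just below and both EXOSC7 values just above control siRNA; these were 2 of 10 members that did not overlap, against 39.1% of all genes (19.9% higher and 19.2% lower). The log2 fold changes ran from −0.25 (EXOSC4) to 0.25 (EXOSC8). Their 95% intervals all lay between −0.999 and 0.981 on the log2 scale, from −0.36 to 0.52 for EXOSC6 and from −0.986 to 0.956 for EXOSC5. Changes within a gene's own interval could not be told from none. The fit shares its spread over all groups, and PlaB had the largest replicate gaps (median absolute log2 ratio 0.60 over all genes, against 0.17 to 0.32). With only the 2 siRNA groups in the fit, 0 members were called. Control siRNA against DMSO, which shares its libraries with both comparisons, gave 0 called members (0.0% of all genes called, 152 genes at an unadjusted p under 0.05, 0 by DESeq2) and log2 fold changes from −0.32 to 0.08.

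The difference between both effects was tested in the same fit. For 6 of the 10 members the effect of PlaB against DMSO differed from that of SF3B2 siRNA against control siRNA, against 53.7% of all genes (25.2% higher and 28.5% lower). The difference was higher for EXOSC6 (log2 3.85 ± 0.28, edgeR adjusted p = 0.000131), EXOSC4 (3.78 ± 0.47, adjusted p = 0.000504) and EXOSC2 (1.77 ± 0.44, adjusted p = 0.0109). It was lower for EXOSC7 (−2.87 ± 0.38, edgeR adjusted p = 0.000652), EXOSC8 (−1.41 ± 0.46, adjusted p = 0.0315) and EXOSC1 (−1.31 ± 0.36, adjusted p = 0.0153). The calls of EXOSC4, EXOSC6 and EXOSC7 held in 15 of 15 alternatives, those of EXOSC1, EXOSC2 and EXOSC8 in 13, 12 and 10 of 15. The arms also differ in the length and kind of treatment, 24 h of a drug against 72 h of siRNA, so agent and time cannot be told apart.

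Exon number went with the change over all genes. Among 12813 protein-coding genes tested, the median log2 fold change with PlaB was 1.56 in 344 genes of 1 exon, 0.74 in 1397 genes of 2 to 3 exons, 0.04 in 2858 genes of 4 to 6, −0.36 in 2861 genes of 7 to 10, −0.75 in 3605 genes of 11 to 20 and −1.02 in 1748 genes of 21 or more. With SF3B2 siRNA the medians of these classes lay between −0.09 and 0.05. The members with the fewest exons, EXOSC6 and EXOSC4, were the highest, and both lay well above their own classes, EXOSC6 above 89.8% and EXOSC4 above 92.9% of genes with as many exons. EXOSC7 and EXOSC2, with 8 and 9 exons, lay in 1 class and moved in opposite directions, EXOSC7 above 12% and EXOSC2 above 85.2% of it. EXOSC1, in the same class, lay above 30.1%. EXOSC10, with the most exons of the 10, lay above 75.2% of its class and EXOSC9 above 76.4%, whereas EXOSC8, in the class of EXOSC9, lay above 41.2%. EXOSC3 and EXOSC5 lay near the middle of theirs, above 55.9% and 62.5%.

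**Figure D4:**
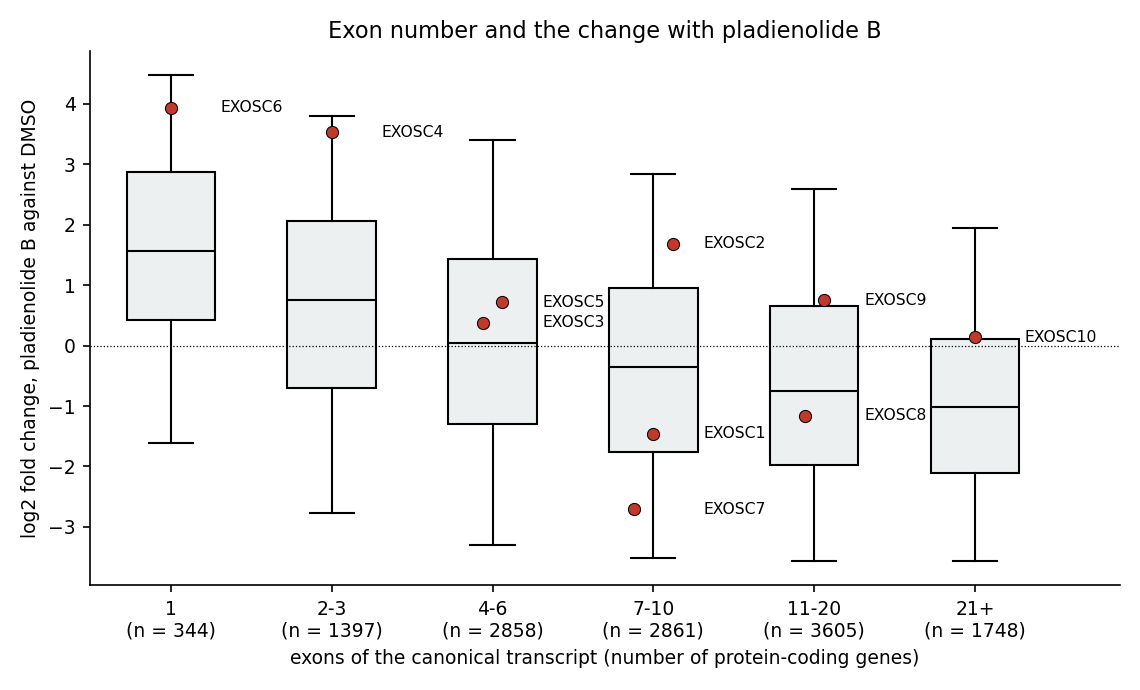
Log2 fold change with PlaB against DMSO by exon number of the canonical transcript; boxes show quartiles and median of protein-coding genes, whiskers the middle 90%, and red points the exosome subunits. The class medians go from 1.56 for 1 exon to −1.02 for 21 or more, with EXOSC6 and EXOSC4 in the upper part of the classes with fewest exons and EXOSC7 low in its class.

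EXOSC4 holds another counted gene within an intron, which was chosen after the values were seen. The microRNA gene MIR6847 is annotated inside EXOSC4, at chr8:144079874-144079942, and its 69 bases are the last bases of intron 1, which is 1043 bases long. The table counts it separately. MIR6847 had 135 and 39 reads with PlaB, against 5 and 6 reads with DMSO. It had 9 and 4 reads with SF3B2 siRNA, against 4 and 6 with control siRNA. Both PlaB libraries were higher than all other libraries, and the library with more EXOSC4 also had more MIR6847. Its log2 fold change with PlaB was 5.49 ± 0.68 (edgeR adjusted p = 0.000227), above the 3.53 of EXOSC4, and 4.45 and 6.08 without PlaB replicates 1 and 2. The libraries were selected for polyadenylated RNA, so these reads need not come from the processed microRNA, and their source was not tested.

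Calls in both directions were also found among the genes that work with the exosome. Of 62 genes in 9 lists of RNA decay factors, all tested, edgeR called 43 with PlaB, a share near the 68.0% of all genes. Of the 62 genes 27 were higher, 16 were lower and 19 were not called, against 32.5% higher and 35.5% lower among all genes. With TMM scaling higher calls thus outnumbered lower ones here and not over all genes, and this difference was not tested. Counts by direction depend on the scaling. Over all genes they were 5358 higher and 5854 lower with TMM, and 3313 and 8446 with library size alone. Calls not named below, such as the higher CNOT2, DDX6 and CNOT9 and the lower LSM6, were also lost under at least 1 alternative. The median log2 fold change of the 62 genes was 0.41 (−0.11 over all genes). The exonucleases of the core, DIS3 in the nucleus and DIS3L in the cytoplasm, were not called. DIS3 had 35.8 and 54.8 CPM with PlaB and 50.5 and 42.4 CPM with DMSO (log2 fold change −0.04 ± 0.26), and fell with library-size scaling (−0.90, adjusted p = 0.0180). DIS3L had 9.73 and 26.9 CPM with PlaB and 19.0 and 18.8 CPM with DMSO (−0.04 ± 0.41). On the TMM scale 1 PlaB library of DIS3L lay on either side of DMSO. Its log2 fold change was 0.51 without PlaB replicate 1 and −0.97 without PlaB replicate 2. The signs of DIS3 and DIS3L turned with RLE scaling (0.12 and 0.10).

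Among the nuclear cofactors MTREX, the helicase that feeds RNA to the nuclear exosome, had 7.10 and 6.77 CPM with PlaB, against 25.7 and 27.7 CPM with DMSO (log2 fold change −1.95 ± 0.22, edgeR adjusted p = 0.000147). C1D, which binds EXOSC10, and MPHOSPH6, which docks MTREX to the core, were lower too (−1.49 ± 0.26 and −0.65 ± 0.25), whereas NRDE2, which binds MTREX and holds it from the exosome, and NOP53, a ribosome biogenesis adaptor, were higher (2.83 ± 0.31 and 1.17 ± 0.29). Of the TRAMP list the poly(A) polymerases TENT4B and TENT4A were higher (1.62 ± 0.25 and 1.40 ± 0.45) and 1 gene was not called. Of 7 genes of the nuclear targeting complexes NEXT and PAXT 3 were higher and 0 lower, ZCCHC8 (1.87 ± 0.21), ZFC3H1 (0.99 ± 0.31) and PABPN1 (0.83 ± 0.28, which turned to −0.04 with library-size scaling). Of 4 genes that link these to the cap-binding complex 3 were higher, SRRT (ARS2) at 1367 and 1889 CPM with PlaB and 102 and 106 CPM with DMSO (3.97 ± 0.26), NCBP2 (2.38 ± 0.20) and ZC3H18 (2.06 ± 0.32).

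The cytoplasmic SKI complex threads messenger RNA into the exosome. Of the 4 genes of the SKI list 2 were higher and 2 lower, against 32.5% higher and 35.5% lower among all genes. These shares are the background of each list count given here. The SKI helicase SKIV2L had 300 and 328 CPM with PlaB, against 95.1 and 87.0 CPM with DMSO (log2 fold change 1.79 ± 0.19). HBS1L, whose gene also encodes the SKI7 bridge to the exosome, was higher by 1.32 ± 0.23. The other core subunits were lower, WDR61 at 2.40 and 2.55 CPM with PlaB and 30.1 and 26.2 CPM with DMSO (−3.50 ± 0.25) and TTC37 (−2.70 ± 0.29). Of 17 genes of decapping and 5′-to-3′ decay 8 were higher, led by DCP1A (3.26 ± 0.29), DXO (3.15 ± 0.23) and LSM3 (3.05 ± 0.33), and 5 were lower, led by the decapping enzyme DCP2 (−2.95 ± 0.42), DCP1B (−2.72 ± 0.27) and LSM2 (−1.72 ± 0.24). Of 14 deadenylation genes 6 were higher, led by CNOT4 (3.995 ± 0.36), CNOT3 (3.02 ± 0.20) and PAN3 (1.52 ± 0.22), and 3 were lower, PAN2 (−2.03 ± 0.23), PARN (−1.79 ± 0.26) and CNOT11 (−0.96 ± 0.20). Of 5 other 3′-to-5′ factors the mitochondrial helicase SUPV3L1 was higher (4.4 ± 0.39), and its partner nuclease PNPT1 (−3.02 ± 0.65), DIS3L2 (−1.44 ± 0.39) and ISG20 (−0.86 ± 0.22) were lower. With SF3B2 siRNA 0 of the 62 genes were called by edgeR, and 1 had an unadjusted p under 0.05, PNPT1, at 31.7 and 37.7 CPM with SF3B2 siRNA and 73.3 and 86.6 CPM with control siRNA (log2 fold change −1.21 ± 0.61). The calls of 8 of the named genes did not hold under every alternative of the edgeR fit. Their largest adjusted p was 0.900 for ZFC3H1, 0.578 for TENT4A, 0.471 for NOP53 and 0.148 for HBS1L, each lost with library-size scaling and with TPM. It was 0.921 for PABPN1, 0.265 for MPHOSPH6 (lost with RLE scaling), 0.0664 for PAN3 (lost with TPM) and 0.0781 for ISG20 (lost without DMSO replicate 2). Leaving out 1 PlaB library moved other values by over 1.5 times in fold. Without replicate 1 SUPV3L1 was at 3.78, PNPT1 at −2.27 and DIS3L2 at −0.92. Without replicate 2 TENT4A was at 0.42 and not called (edgeR adjusted p = 0.113), ZC3H18 at 1.45, DCP2 at −3.68, PNPT1 at −4.72 and DIS3L2 at −2.27.

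**Figure D5:**
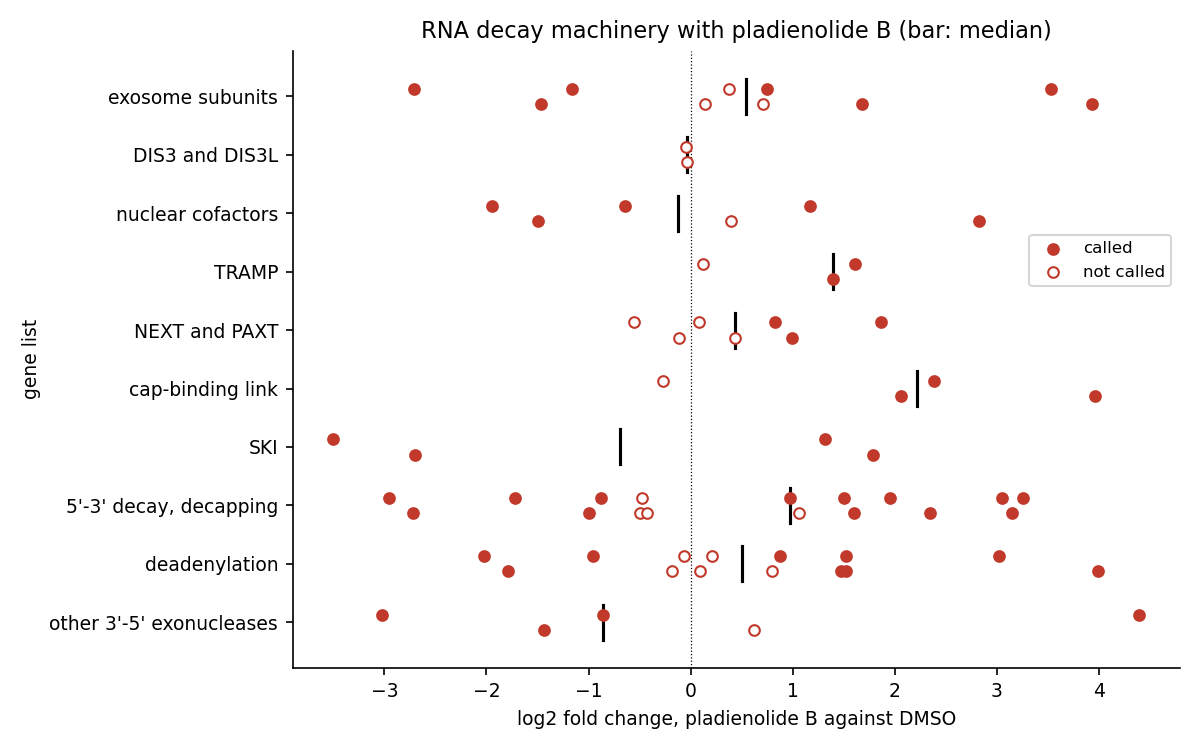
Log2 fold change with PlaB against DMSO for the exosome subunits and 9 lists of RNA decay factors; points are genes, filled where called by edgeR, and bars are list medians. Each list with over 3 genes other than NEXT and PAXT and the cap-binding link holds called genes on both sides of 0.

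The genes most like the extreme members over the 8 libraries were sought among 12803 protein-coding genes by the distance between centred log2 CPM profiles. Nearest to EXOSC6 were ANKRD40 (distance 0.34), TMED7-TICAM2 (0.36) and LSG1 (0.37), with 5, 4 and 14 exons and log2 fold changes with PlaB of 4.11, 3.995 and 4.06. Nearest to EXOSC7 were TAB1 (0.19), UBAC2 (0.21) and HS1BP3 (0.25), with 11, 9 and 7 exons and log2 fold changes of −2.65, −2.57 and −2.66. These profiles are dominated by the contrast of the 2 PlaB libraries with the other 6.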

How the data were processed

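The series holds 1 table of 17010 genes for 8 PC3 libraries. Per the labels' protocols total RNA went into a stranded mRNA library kit. The authors deposited raw read counts, TPM and FPKM per gene and library. They also deposited normalized log2 values, a signed fold change (a score in which a lower level is minus the inverse ratio) and p-values, raw and adjusted, per the file headers. Build GRCh38 and, with no role stated, Bowtie2 2.3.5.1, HISAT2 2.10, Trimmomatic 0.38 and edgeR come from the submitters' processing notes. The sources used here name neither the counting program nor its annotation and use of strand.

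The deposited counts went into edgeR 4.0.16 under R 4.3.3 (robust quasi-likelihood F-test, TMM, filterByExpr at a minimum count of 10), two-sided, with all 4 groups in 1 fit and 4 residual degrees of freedom. Benjamini-Hochberg adjustment ran over 16488 genes, and genes were called at an adjusted p under 0.05. Alternatives were DESeq2 1.42.0, RLE scaling, library size alone, no filter, the replicate number as a block, only the groups compared, each library left out in turn, and limma 3.58.1 on log2(TPM + 1) or log2(TPM + 0.1). An exact permutation test of 2 against 2 libraries cannot reach 0.05, and none was run. The fit was also run on simulated counts in which few genes changed, with either direction equally likely. Such counts cannot speak to the scaling of the PlaB libraries, where 68.0% of genes were called. FPKM and the deposited log2 values were not used for results.

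Of 17010 genes 16758 matched a RefSeq gene by identifier and 15102 a GENCODE gene (release 44) by symbol and chromosome. Coordinates are those of GRCh38, counted from 1. The members and all lists were chosen with earlier results of these data known. Decay lists name DIS3, DIS3L, MTREX and at most 3 called genes of each direction by size of change; MIR6847, overlapping genes and the ring ratios were chosen after their values were seen. No replicate pair was within sampling noise. Counting depth per member ran from 55 to 14496 reads. A further marker list is not reported here.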

Additional observations from a re-analysis of the deposited data

How the results depend on the processing

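The counts of members called kept within 1.5 times under every alternative run (5 to 8 of 10 with PlaB, 4 to 8 for the difference, 0 with siRNA), and the calls and directions of EXOSC1, EXOSC4, EXOSC6 and EXOSC7 with PlaB held in all 16. Scaling by library size alone, log2(TPM + 0.1) and log2(TPM + 1) turned the sign of EXOSC3 (−0.50, −0.50 and −0.47), EXOSC5 (−0.17, −0.34 and −0.32), EXOSC9 (−0.12, −0.22 and −0.20), EXOSC10 (−0.72, −0.996 and −0.96) and PABPN1 (−0.0359, −0.14 and −0.13) with PlaB. For the drug effect minus the siRNA effect the same settings gave −0.57, −0.51 and −0.48 for EXOSC3, −0.17, −0.23 and −0.22 for EXOSC5, −0.28, −0.31 and −0.29 for EXOSC9, and −0.70, −0.84 and −0.81 for EXOSC10. DESeq2 and RLE scaling gave 0.12 and 0.12 for DIS3 and 0.11 and 0.10 for DIS3L. The cause of these changes was not tested.

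Leaving out each library in turn with PlaB gave −0.0188 to 1.18 for EXOSC5, −0.59 to 0.61 for EXOSC10, −0.39 to 0.23 for DIS3 and −0.97 to 0.51 for DIS3L. For the difference it gave −0.00469 to 1.2 for EXOSC5 and −0.55 to 0.65 for EXOSC10. With SF3B2 siRNA it gave −0.33 to 0.00518 for EXOSC1, −0.24 to 0.0405 for EXOSC2, −0.0563 to 0.17 for EXOSC3, −0.46 to 0.32 for EXOSC5, −0.0326 to 0.195 for EXOSC6, −0.0038 to 0.31 for EXOSC7, −0.0179 to 0.46 for EXOSC8 and −0.19 to 0.0847 for EXOSC10, none called. In these fits a lone library is assumed to vary like the other groups. PlaB replicates differed more than those of the other groups (median absolute log2 ratio 0.60 over all genes, against 0.17 to 0.32). EXOSC9 lost its PlaB call without either DMSO library, either control siRNA library or PlaB replicate 2 (adjusted p by edgeR 0.0508 to 0.135).

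All genes called with SF3B2 siRNA numbered 34 by DESeq2, 1 with RLE scaling, 1 with only the 2 groups compared, and 0 to 1 with a library left out, against 0 by edgeR. Ordering members by CPM per kb of the longest annotated transcript gave highest-to-lowest ratios of 363 with PlaB, 15.9 with DMSO, 14.5 with SF3B2 siRNA and 19.2 with control siRNA, against 218, 9.45, 9.65 and 12.2 in TPM, each the mean of the ratios of 2 libraries.

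Equal replicate numbers are not said to mark a shared culture or day. Deviations of equal numbers correlated at 0.12 between PlaB and DMSO and 0.39 between SF3B2 and control siRNA. Groups not compared with each other correlated too. DMSO gave 0.43 with control siRNA and 0.39 with SF3B2 siRNA, and PlaB gave 0.14 and 0.22 with these. With a replicate block 7 members were called with PlaB (11736 genes in all), 6 for the difference and 0 with siRNA.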

Other observations

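SF3B2 itself, a subunit of the complex that pladienolide B binds, had 459 and 632 CPM with PlaB, against 237 and 248 CPM with DMSO. Both PlaB libraries were above all other libraries, and the log2 fold change was 1.17 ± 0.23 (edgeR adjusted p = 0.00228, 2.22e-07 to 0.409 over the alternatives). The effects of drug and siRNA on SF3B2 thus had opposite signs, and their difference was 3.94 ± 0.33 (edgeR adjusted p = 0.000145; called in 15 of 15 alternatives).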
